A study of Mus musculus with 3 samples.

Results

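The 9 genes described here belong to the cell's own death machinery: the initiator caspases Casp8 and Casp9, the BH3-only genes Bid, Bbc3 and Bcl2l11, the pro-survival genes Bcl2, Bcl2l1 and Mcl1, and the pore-forming gene Bax. They were chosen by name, as the Bcl2 family members and apical caspases of the apoptosis pathway, from 20368 genes in the deposited tables, and all 9 were present there. Values come from single-cell libraries of the prefrontal cortex of mice after 1 exposure to the inhaled anaesthetic sevoflurane, at about 3%, on postnatal day 6. The data were 3 libraries of that single exposed group, with animals of both sexes and no strain or genotype given. No unexposed group was among them, so no value below measures a response to the anaesthetic. Nothing in the labels ties a library to an animal, and p-values therefore measure only the spread between these libraries, which may be technical.

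Apoptosis starts by either of a pair of routes. In the extrinsic route, ligand-bound death receptors gather adaptor proteins that bring Casp8 molecules together, and the active protease cleaves executioner caspases and the protein Bid. In the intrinsic route, BH3-only proteins switched on by stress bind the pro-survival members Bcl2, Bcl2l1 (Bcl-xL) and Mcl1 and free or activate Bax, which opens the outer mitochondrial membrane; released cytochrome c then assembles the apoptosome, where Casp9 is activated. The balance of these proteins sets how readily a cell dies, and surplus neurons, oligodendrocyte precursors and other cells of the rodent cortex are removed through this machinery in the days after birth. Messenger RNA levels do not report protein activity, since caspases are made as inactive precursors and Mcl1 protein is rapidly turned over.

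Cells were sorted into classes by pairs of marker genes that both had to be above 0. Dividing cells (Top2a and Cenpf) were taken first, followed by astrocyte-like (Aqp4 and Gja1), oligodendrocyte precursor-like (OPC, Pdgfra and Lhfpl3), oligodendrocyte-like (Mag and Mobp), neuroblast-like (Dlx1 and Sp9), excitatory neuron-like (Neurod6 and Neurod2), microglia-like (P2ry12 and Csf1r) and endothelium-like cells (Cldn5 and Flt1). Of 14192 cells, 11138 (78.5%) fell into 1 of the 8 classes, 427 met the rules of more than 1 and were dropped, and 2627 met none. The classes held 3382 astrocytes, 2482 OPCs, 1410 neuroblasts, 1381 microglia, 821 endothelial cells and 1585 dividing cells. Only 27 oligodendrocytes and 50 excitatory neurons were found, although excitatory neurons are the main neurons of cortex, and these classes are described without a test. Within the dividing class, the same marker pairs placed 410 cells with neuroblasts, 303 with OPCs, 271 with microglia, 111 with astrocytes and 89 with endothelium.

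The 3 libraries held 4775, 5134 and 4283 cells, with a median of 2502 to 2603 detected genes per cell. Of 14102 distinct cell barcodes, 90 occurred in more than 1 library. Levels are means over the cells of a class of depth-corrected counts scaled to the same fixed total in every cell and given in the relative unit CPM. Reads per cell before the authors' correction are unknown, and what a depth difference adds to a share of cells above 0 was therefore not fully measurable. Median detected genes were lowest in neuroblasts (1744) and microglia (1835) and highest in dividing cells (2940), so a share of cells above 0 is also given after each cell was thinned to 4000 counts. RNA of other cells was present throughout: the microglial gene Csf1r was above 0 in 3.92% to 4.53% of astrocytes, OPCs and neuroblasts, and the haemoglobin gene Hbb-bs in 73.1% to 93.2% of cells of the classes. The Csf1r share is called the Csf1r background below, and member shares at or below it are read with caution. The endothelial gene Cldn5 was above 0 in more cells, 10.0% to 13.8% of astrocytes, OPCs, neuroblasts and microglia. Member shares between these figures, such as Bcl2 in neuroblasts and Bbc3 in microglia below, are read with the same caution. Csf1r was at 2631 CPM in microglia and Cldn5 at 10759 CPM in endothelium, above every member level given here. Their shares therefore do not measure the background of a member, and whether low member shares were RNA of other cells was not tested. Endothelium-like cells also carried mural cell markers, at a summed 1641 to 2644 CPM per library, and among the tested classes they had the most erythroid transcripts, at 13321 to 14686 CPM against 1280.0 to 9552 CPM in the others. The part of mural and erythroid RNA in the endothelial values was not tested.

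To show the regulatory sequence beside the values, promoters of all 9 members were found in RefSeq (assembly GRCm38.p6, 14 start sites). Printed here are 4 of them, for genes whose levels set single classes apart: Casp8, high in microglia and endothelium; Bcl2l11 and Bbc3, highest in endothelium among the classes large enough to test; and Bid, high in microglia but not endothelium. Each runs 5′ to 3′ on the gene's strand from 250 bases before to 50 bases after the start. Bcl2l11 and Bbc3 have further start sites, and for each the window that holds the forkhead string GTAAACA is printed. Capitals mark GTAAACA or its reverse complement in Bcl2l11 and Bbc3, and the GC box string GGGCGG in Bid.
Casp8, chr1:58802252-58802551, plus strand: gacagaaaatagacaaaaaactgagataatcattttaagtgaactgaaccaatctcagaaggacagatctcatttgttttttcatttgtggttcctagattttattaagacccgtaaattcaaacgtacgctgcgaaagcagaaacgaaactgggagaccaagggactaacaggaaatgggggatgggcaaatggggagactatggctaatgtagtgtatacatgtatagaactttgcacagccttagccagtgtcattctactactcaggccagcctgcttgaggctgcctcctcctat
Bcl2l11, chr2:128125788-128126087, plus strand: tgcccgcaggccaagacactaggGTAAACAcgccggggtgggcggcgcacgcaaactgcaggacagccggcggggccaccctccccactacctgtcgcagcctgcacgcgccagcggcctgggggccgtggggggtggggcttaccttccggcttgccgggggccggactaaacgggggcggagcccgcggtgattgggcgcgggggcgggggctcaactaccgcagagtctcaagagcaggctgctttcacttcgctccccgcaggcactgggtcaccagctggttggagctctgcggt
Bbc3, chr7:16310011-16310310, plus strand: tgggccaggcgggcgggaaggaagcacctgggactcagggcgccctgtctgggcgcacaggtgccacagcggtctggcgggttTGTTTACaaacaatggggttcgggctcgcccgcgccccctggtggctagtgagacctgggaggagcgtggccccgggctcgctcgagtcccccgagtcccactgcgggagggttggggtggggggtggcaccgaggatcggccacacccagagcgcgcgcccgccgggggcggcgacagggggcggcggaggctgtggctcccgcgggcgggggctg
Bid, chr6:120916775-120917074, minus strand: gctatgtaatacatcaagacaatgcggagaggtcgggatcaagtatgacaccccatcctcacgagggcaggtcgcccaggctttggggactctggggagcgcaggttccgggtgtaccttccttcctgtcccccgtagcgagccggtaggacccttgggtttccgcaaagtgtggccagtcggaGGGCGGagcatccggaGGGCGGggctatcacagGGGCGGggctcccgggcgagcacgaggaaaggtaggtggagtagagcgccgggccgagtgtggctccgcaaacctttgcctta

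The Casp8 window had a G+C content of 42.0%, against 71.0% in Bcl2l11, 74.7% in Bbc3 and 63.3% in Bid. It held no GGGCGG on either strand, a string found in 35.7% of 32851 RefSeq promoters and in at least 1 promoter of 7 members (Bax, Bbc3, Bcl2, Bcl2l11, Bid, Casp9 and Mcl1). The Casp8 gene span given below begins at 58795374, upstream of this window, and sequence at that end was not searched. The string GTAAACA, which forkhead factors of the FoxO family bind, began at −227 in the printed window of Bcl2l11 and at −167 in that of Bbc3. Windows of the other start sites of Bcl2l11 and Bbc3 held 0 matches. GTAAACA was found on either strand in 3.65% of all promoters and in no other member. That share is per promoter, and a gene with several start sites has more windows in which to match. CACGTG, an E-box, was in promoters of Bax and Bbc3 (7.15% of all promoters), and CCACACCC in Bbc3 (3.56%). CCGGAAG, an ETS-type string, was in Bcl2l1, Bcl2l11 and Mcl1 (8.86%), and its extension CCGGAAGT, which overlaps it, in Bcl2l1 (3.89%). TTCGCGC was in Bcl2l1 (1.59%), and GAGGAA in Bcl2 and Bid (28.3%). Another 4 strings were in no member's window: GAGGAAGT and AGAGGAAG, which both contain GAGGAA, and TGACGTCA and TGACGCAA. These were in 3.20%, 4.55%, 1.79% and 0.490% of all promoters in that order. A match is a description of these letters and not of binding.

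Casp8 (chromosome 1, 58795374 to 58847503, plus strand) was highest in endothelium and microglia. Its mean level was 121, 142 and 135 CPM in endothelium of libraries 1, 2 and 3, and 121, 116 and 119 CPM in microglia. It was 31.5, 43.2 and 43.7 CPM in dividing cells, a class that mixes lineages. Every library of these 3 classes lay above every library of astrocytes (8.04, 7.72 and 7.39 CPM), neuroblasts (2.08, 3.45 and 3.25 CPM) and OPCs (1.63 to 3.76 CPM). The log2 difference of each class from the unweighted mean of the other 5 tested classes was 2.33 in endothelium (SE 0.08, adjusted p = 1.37e-16, limma with Benjamini-Hochberg adjustment over all tested genes) and 2.16 in microglia (SE 0.08, adjusted p = 8.14e-16). Endothelium and microglia overlapped and did not differ beyond their spread (log2 difference 0.14, adjusted p = 0.222), nor did neuroblasts and OPCs, although OPCs were lower when values were centred on the median gene (−0.55). Casp8 was above 0 in 63.4% ± 4.12 (SD, n = 3 libraries) of endothelial cells and 43.5% ± 4.70 of microglia. After thinning these shares were 45.8% and 36.2%. In astrocytes, neuroblasts and OPCs the shares were 4.52%, 1.46% and 1.39%, near or below the Csf1r background. No count was found in 27 oligodendrocytes, which allows up to 11.1% of cells with a count, or in 50 excitatory neurons, which allows up to 6%. These limits concern cells with a count, not cells that express the gene.

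Casp9 (chromosome 4, 141793612 to 141815976, plus strand), the initiator of the intrinsic route, was low in every class, and its mean of 9.09 CPM was under the 10 CPM filter of the test. It was 14.4, 7.78 and 16.1 CPM in endothelium, 11.6, 10.5 and 10.8 CPM in astrocytes, and 5.37, 5.34 and 5.87 CPM in OPCs. The endothelial libraries overlapped those of astrocytes, microglia (7.08 to 13.1 CPM) and neuroblasts (7.86 to 10.5 CPM), and whether these neighbours in the order differ was not tested. It was above 0 in 8.32% ± 2.76 of endothelial cells, 6.64% ± 0.435 of astrocytes and 3.01% of OPCs, the last below the Csf1r background. Casp9 overlaps Cela2a and Ctrc on the opposite strand, and strand-specific counting is not given in the sources used here.

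Bid links the routes, since its protein is cut by active Casp8 and then acts on Bax. Among the tested classes it was high in microglia alone, at 54.2, 42.0 and 46.2 CPM. The dividing class held 14.0, 8.67 and 10.4 CPM, and the other tested classes ranged from 2.11 CPM in an astrocyte library to 9.18 CPM in an OPC library. No microglial library overlapped any of these. The difference of microglia from the other classes was 1.82 on the log2 scale. Bid passed the 10 CPM filter only through microglia, with a mean of 6.46 CPM over the other classes, so this difference is given as a description with no p. It was above 0 in 22.3% ± 2.63 of microglia (16.2% thinned) and in 1.84% to 4.43% of astrocytes, OPCs, neuroblasts and endothelial cells, near or below the Csf1r background. Bid (chromosome 6, 120891930 to 120916853, minus strand) is overlapped by Bcl2l13 on the other strand.

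Bbc3 (chromosome 7, 16308393 to 16318205, plus strand) encodes Puma, a BH3-only protein induced by p53. Its level was 52.8, 42.7 and 57.0 CPM in endothelium, and 15.1, 15.8 and 20.1 CPM in microglia. It was 14.2, 13.1 and 10.4 CPM in neuroblasts and lowest in astrocytes, at 6.58, 4.62 and 4.34 CPM. Endothelium stood clear of every other tested class, with a log2 difference of 1.58 from their mean (SE 0.09, adjusted p = 1.17e-12). Microglia did not overlap neuroblasts but missed the threshold against them (adjusted p = 0.0533), and passed it under 3 alternatives, with neuroblasts minus microglia at −0.28 to −0.36. Neuroblasts and dividing cells overlapped and did not pass (0.22, adjusted p = 0.0905), though they did when centred on the median gene (0.75) or with both markers at 2 or more counts (0.31). Dividing cells and OPCs did not differ beyond their spread, and OPCs exceeded astrocytes by 0.35 (adjusted p = 0.0145, 61.7% of all genes called in this pair), a call lost under 4 alternative settings. Bbc3 was above 0 in 30.0% ± 4.16 of endothelial cells (20.3% thinned), 8.32% of microglia and 3.12% of astrocytes. Cdkn1a, another p53 target that also has other inducers, was at 630.3, 714 and 871 CPM in endothelium, with a log2 difference of 4.06 there (adjusted p = 1.34e-19). Of the other tested genes of the p53 list, Trp53 was higher in endothelium (0.54), Zmat3, also a p53 target, was lower (−0.37), and Mdm2 did not pass (−0.13, adjusted p = 0.231).

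Bcl2l11 (chromosome 2, 128126038 to 128162547, plus strand) encodes Bim, which binds all the pro-survival members. It was at 35.3, 34.9 and 42.5 CPM in endothelium and 28.3, 23.3 and 28.5 CPM in microglia. Neuroblasts held 8.72, 7.23 and 9.12 CPM, and astrocytes and OPCs between 2.04 and 3.44 CPM. Several steps in this order passed the test, in which endothelium exceeded microglia by 0.37 (adjusted p = 0.00101), microglia exceeded dividing cells by 0.60 and neuroblasts exceeded astrocytes by 0.51 (70.2%, 83.8% and 74.3% of all genes were called in those 3 pairs). Astrocytes and OPCs did not differ beyond their spread. The endothelium-to-microglia step was not past the threshold when values were centred on the median gene (microglia minus endothelium −0.13) or when only cells with 2000 to 3500 detected genes were used (−0.24). Bcl2l11 was above 0 in 21.7% ± 1.84 of endothelial cells and 13.0% ± 0.812 of microglia, and in 1.76% of astrocytes and 1.26% of OPCs, below the Csf1r background.

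**Figure D1:**
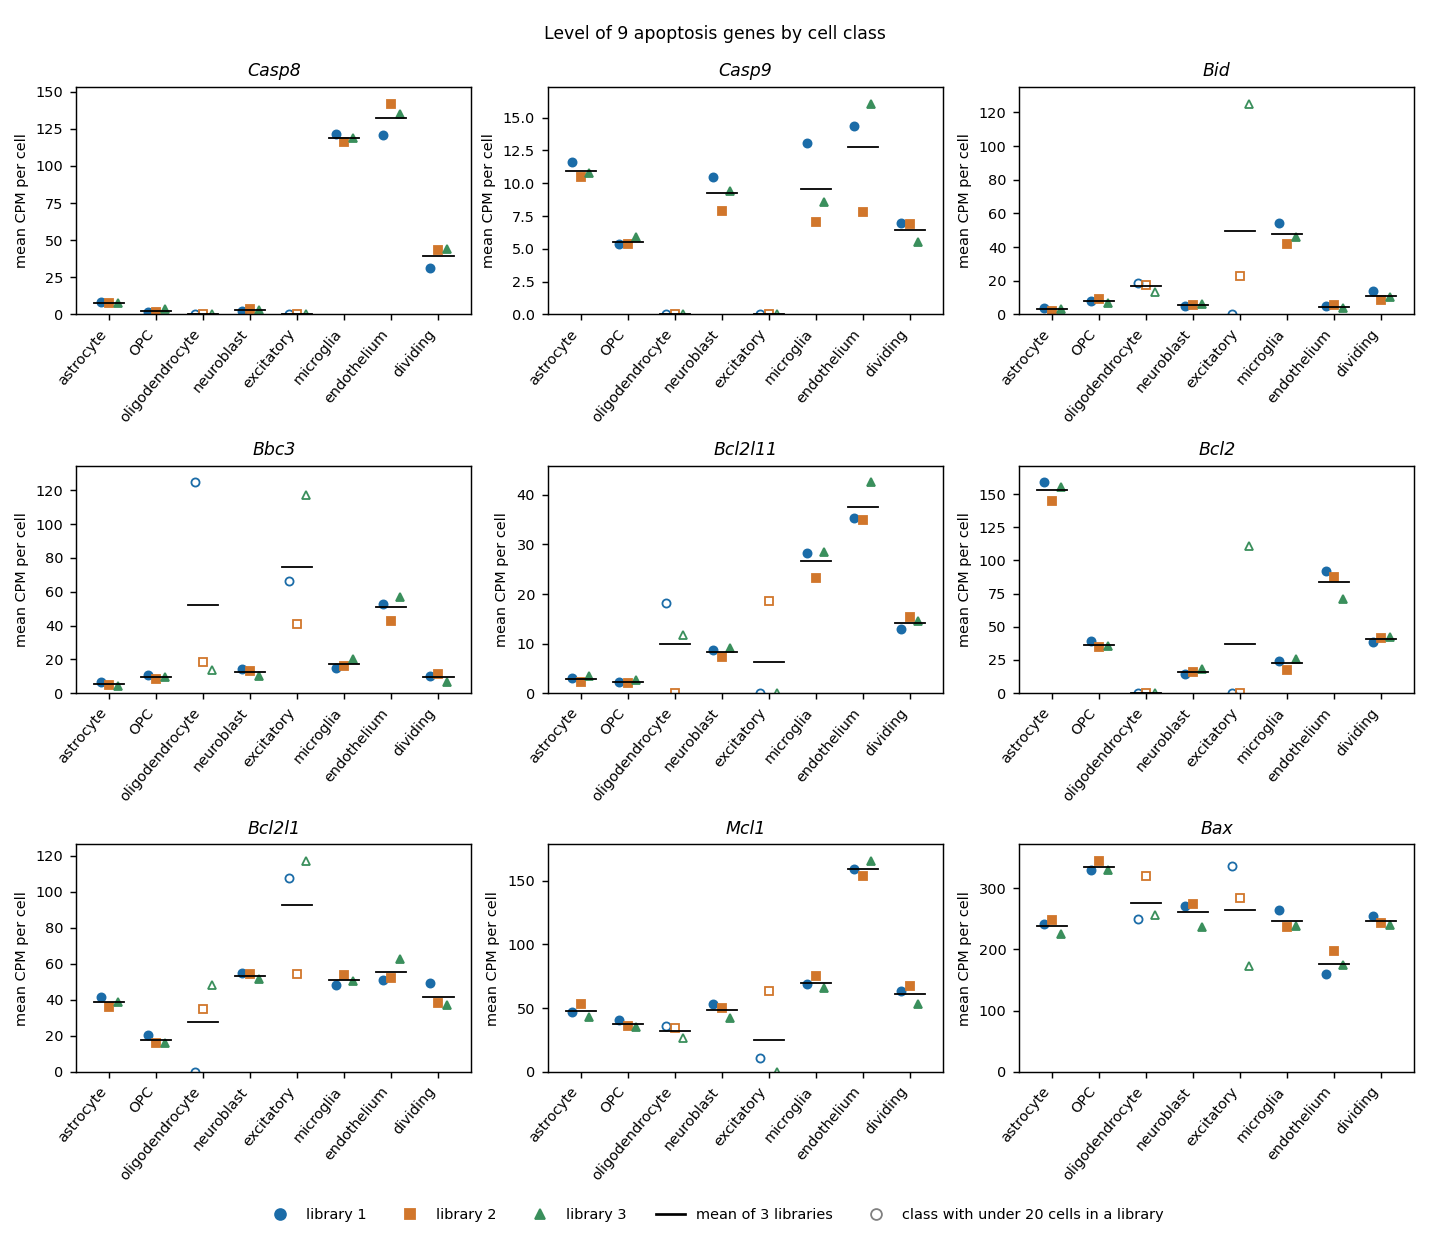
Mean CPM per cell (vertical axis, a scale of its own in each panel) of the 9 genes in 8 cell classes (horizontal axis); points are the 3 libraries, the line is their mean, and open symbols mark classes with under 20 cells in a library. Among filled symbols Casp8 was high in endothelium and microglia, Bid in microglia, Bbc3 and Mcl1 in endothelium and Bcl2 in astrocytes, while Bax was present in every class. The open symbol of Bbc3 in excitatory neurons at 117 CPM is library 3, which held 3 such cells.

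Among the pro-survival genes, Bcl2 was highest in astrocytes, Mcl1 in endothelium, and Bcl2l1 was spread over several classes. Bcl2 (chromosome 1, 106538178 to 106714274, minus strand) was at 159, 145 and 156 CPM in astrocytes and 92.3, 87.8 and 71.1 CPM in endothelium. Below these were dividing cells (38.5, 41.7 and 42.1 CPM), OPCs (34.4 to 39.1 CPM), microglia (17.8 to 25.5 CPM) and neuroblasts (14.1, 16.2 and 18.2 CPM). Astrocytes stood above every other class in all 3 libraries, with a log2 difference of 1.86 from the others (SE 0.08, adjusted p = 2.64e-14). Dividing cells and OPCs did not differ beyond their spread (adjusted p = 0.295). Bcl2 was above 0 in 57.7% ± 2.57 of astrocytes (43.6% thinned), 44.3% ± 2.65 of endothelial cells (28.7% thinned) and 6.16% of neuroblasts (5.10% thinned). An antisense transcript, D630008O14Rik, overlaps Bcl2, and reads of the pair cannot be told apart where counting ignores strand.

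Bcl2l1 (chromosome 2, 152780668 to 152831728, minus strand), whose Bcl-xL product protects maturing neurons, varied less between classes. It was at 51.1, 52.2 and 62.9 CPM in endothelium, 54.7, 54.2 and 51.3 CPM in neuroblasts and 48.2, 53.8 and 50.5 CPM in microglia, and these 3 classes overlapped and did not differ beyond their spread. OPCs stood apart below them, at 20.3, 16.2 and 15.9 CPM, with a log2 difference of −1.07 (SE 0.08, adjusted p = 1.71e-10). Astrocytes, at 41.8, 35.9 and 38.9 CPM, exceeded OPCs by 0.83 and did not differ from dividing cells beyond their spread. Bcl2l1 was above 0 in 8.62% ± 0.787 of OPCs and in 21.3% to 30.4% of the other tested classes.

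Mcl1 (chromosome 3, 95658788 to 95663176, plus strand), the short-lived member, was highest in endothelium, at 159, 153 and 165 CPM. Microglia followed at 68.8, 75.3 and 65.9 CPM, dividing cells at 53.5 to 67.1 CPM, neuroblasts at 42.5 to 53.3 CPM, astrocytes at 43.3 to 53.4 CPM and OPCs at 40.8, 35.8 and 35.2 CPM. Endothelium was above all the others in every library, with a log2 difference of 1.45 (SE 0.07, adjusted p = 3.14e-14). OPCs were below every library of the other tested classes. Microglia and dividing cells did not differ beyond their spread (adjusted p = 0.0806), nor did neuroblasts and astrocytes, but centring on the median gene put microglia above dividing cells by 0.72 and astrocytes below neuroblasts (−0.40), both past the threshold. Dividing cells exceeded neuroblasts by 0.28 (adjusted p = 0.00662, in a pair where 75.9% of genes were called), a direction that turned when values were centred on the median gene. Mcl1 was above 0 in 67.1% ± 3.77 of endothelial cells (49.7% thinned) and 17.5% of OPCs (13.2% thinned).

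Bax (chromosome 7, 45461697 to 45466898, minus strand), whose protein forms the mitochondrial pore, was the member found in most cells of every class, in 71.7% of all 14192. It was at 329, 344 and 329 CPM in OPCs, 271, 274 and 237 CPM in neuroblasts and 159, 197 and 174 CPM in endothelium. OPCs were above and endothelium below the other classes in all 3 libraries, with log2 differences of 0.51 (SE 0.06, adjusted p = 5.21e-08) and −0.55 (SE 0.06, adjusted p = 1.16e-08). OPCs exceeded neuroblasts by 0.35 (adjusted p = 2.19e-04, 69.1% of genes called), which reversed to −0.14 when values were centred on the median gene. From neuroblasts through microglia (236 to 265 CPM) and dividing cells to astrocytes (225 to 248 CPM), no step between neighbours passed the threshold. For microglia minus dividing cells this depended on the scaling, with 0.55 when centred on the median gene and −0.22 without rescaling, both past the threshold. The share of cells above 0 ran from 61.2% in microglia to 78.6% ± 0.256 in OPCs and, in thinned cells, from 49.1% in endothelium to 70.1% in OPCs.

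Most genes were called in these comparisons, and the members' counts stand beside those shares. In the endothelium comparison, 6 of 8 tested members were higher and 2 lower, where 31% of 9754 genes were higher and 50.6% lower. Bid and Bax were the lower members, and the members' median difference was 1.10 against −0.19 over all genes. Bid entered the test only through microglia, which are part of the mean that endothelium is set against. Its call is no support for this count, and its value is also in the members' median. In microglia 5 members were higher and 1, Bcl2, lower, where 21% of genes were higher and 62.8% lower. Bid, which entered the test only through microglia, is among the 5 and is no support for that count, which is 4 of 7 without it. The microglial call of Mcl1 (0.15, adjusted p = 0.0431) was lost under 6 alternatives, and that of Bcl2l1 (0.31, adjusted p = 0.00139) without library 2 (0.25, adjusted p = 0.0588). Casp9 is in none of these counts, since it did not pass the filter.

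In astrocytes only Bcl2 was higher, and 5 members were lower (36.1% of all genes higher, 37.4% lower). OPCs had 1 member higher, Bax, and 6 lower (49.5% and 24.9%). Neuroblasts had 1 higher, Bcl2l1 (0.38, adjusted p = 1.98e-04), and 5 lower (28.4% and 51.7%). In each of these 3 classes Casp8, Bcl2l11 and Mcl1 were lower, although in neuroblasts Bcl2l11 and Mcl1 were not called after centring on the median gene, and Bcl2l11 turned to 0.19 in cells of 2000 to 3500 detected genes, not past the threshold (adjusted p = 0.0875). Bid, which entered the test only through microglia, was among the 5 lower members in astrocytes and in neuroblasts and is no support for those counts. Members' medians, with Bid included, were −0.58, −0.58 and −0.36 in astrocytes, OPCs and neuroblasts, against −0.0022, 0.18 and −0.22 over all genes. In dividing cells Casp8 was higher (0.49, adjusted p = 2.06e-05) and Bbc3 lower (−0.40, adjusted p = 7.29e-04), where 51.9% of genes were higher and 9.26% lower.

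Centring each class on its median gene moved the split between higher and lower genes. It gave 2815 higher and 4575 lower in astrocytes (3525 and 3649 as CPM) and 2777 and 4044 in OPCs (4827 and 2431). It gave 4422 and 3492 in neuroblasts (2772 and 5044) and 3512 and 3949 in microglia (2052 and 6128). For dividing cells it gave 2229 and 3820 (5063 and 903), and the median over all genes moved from 0.22 to −0.10. With centring the members split into 1 higher and 7 lower in astrocytes, OPCs and dividing cells, 2 and 2 in neuroblasts, 7 and 1 in microglia, and 6 and 2 in endothelium. Bid, which entered the test only through microglia, is in all of these counts but that of neuroblasts.

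**Figure D2:**
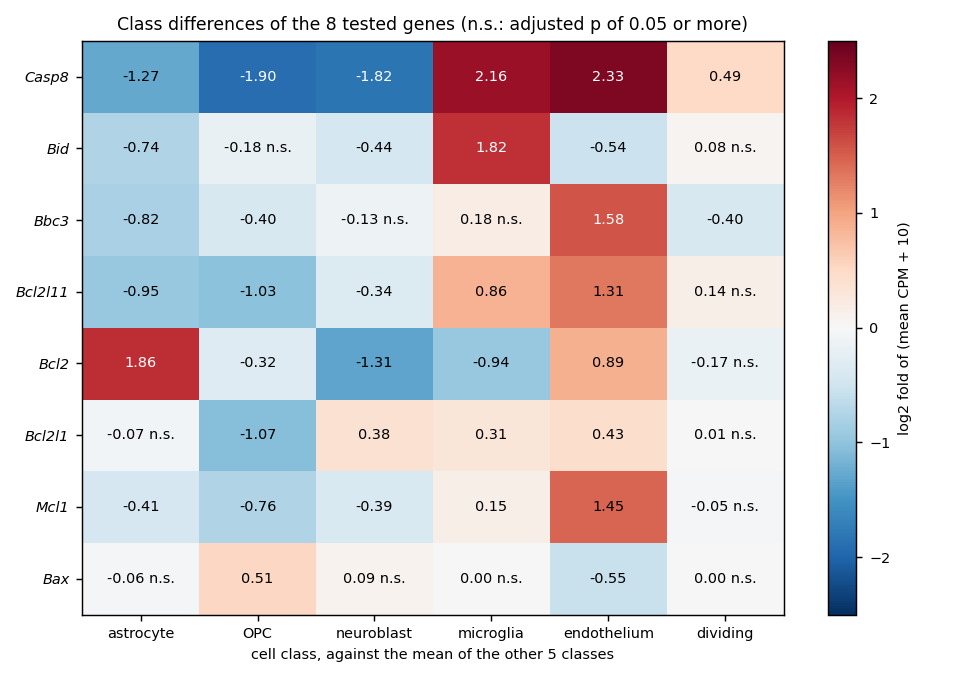
Log2 difference of each of 6 cell classes (horizontal axis) from the unweighted mean of the other 5 for the 8 tested genes (vertical axis); colour gives the difference and n.s. marks those with an adjusted p of 0.05 or more. Endothelium and microglia share the high Casp8 and Bcl2l11 values and part at Bcl2, Bid, Mcl1 and Bbc3.

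Microglia and endothelium, the classes with most Casp8, were compared directly. Bax was higher in microglia by 0.46 (adjusted p = 8.97e-06). Bid differed by 1.96 in the same direction, given with no p because it passed the filter only through microglia. Bcl2 was lower there by 1.53 on the log2 scale (difference −1.53, adjusted p = 4.70e-11), and Mcl1 (−1.08), Bbc3 (−1.17) and Bcl2l11 (−0.37) were lower as well. Casp8 (−0.14, adjusted p = 0.222) and Bcl2l1 (−0.10, adjusted p = 0.405) did not pass the threshold, though both did when corrected counts were not rescaled (−0.42 and −0.34). These 2 higher (1 without Bid) and 4 lower members stand beside 2782 higher and 4069 lower genes, 70.2% of those tested. Centring changed that split to 4300 and 2865.

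Astrocytes and OPCs, the largest classes, parted mainly at Bcl2, which was higher in astrocytes by 1.82 (adjusted p = 4.72e-12), and at Bcl2l1, higher by 0.83 (adjusted p = 5.74e-07). Bax was lower in astrocytes (−0.47, adjusted p = 8.44e-06), and Bcl2l11 was not past the threshold (0.07, adjusted p = 0.510). Bid differed by −0.47, given with no p because it passed the filter only through microglia, at shares near or below the Csf1r background in both classes. Casp8 was higher by 0.52 (adjusted p = 1.82e-04) at shares near or below the Csf1r background in both, and Mcl1 by 0.29 (adjusted p = 0.00736), a call lost without library 2. In all, 4 members were higher and 3 lower, with Bid among the 3, beside 61.7% of genes called (2078 higher, 3938 lower, and 2565 and 3128 after centring).

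Within single cells, roles were combined by counting cells with any pro-survival gene (Bcl2, Bcl2l1 or Mcl1) and any BH3-only gene (Bid, Bbc3 or Bcl2l11) above 0. A pro-survival transcript was detected in 85.3% of endothelial cells, 73.8% of astrocytes, 57.4% of dividing cells, 49.3% of microglia, 41.6% of neuroblasts and 37.1% of OPCs. A BH3-only transcript was detected in 44.1% of endothelial cells and 37.6% of microglia but in 6.54% of astrocytes and 10.1% of OPCs. Microglia had the largest share of cells, among the 6 tested classes, with a BH3-only and no pro-survival transcript detected, 18.0% ± 1.59, against 6.40% ± 1.92 in endothelium and 1.52% in astrocytes. In thinned cells these were 17.0%, 9.20% and 1.69%. The microglial share rests on which pro-survival genes are counted. With Bcl2a1a, Bcl2a1b and Bcl2a1d added to them, an alternative chosen after seeing the data, it was 9.20% ± 1.77 in microglia and 6.29% ± 2.10 in endothelium, and the libraries of the 2 classes overlapped. At this depth a transcript at 0 in a cell is not evidence that the cell lacked it.

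**Figure D3:**
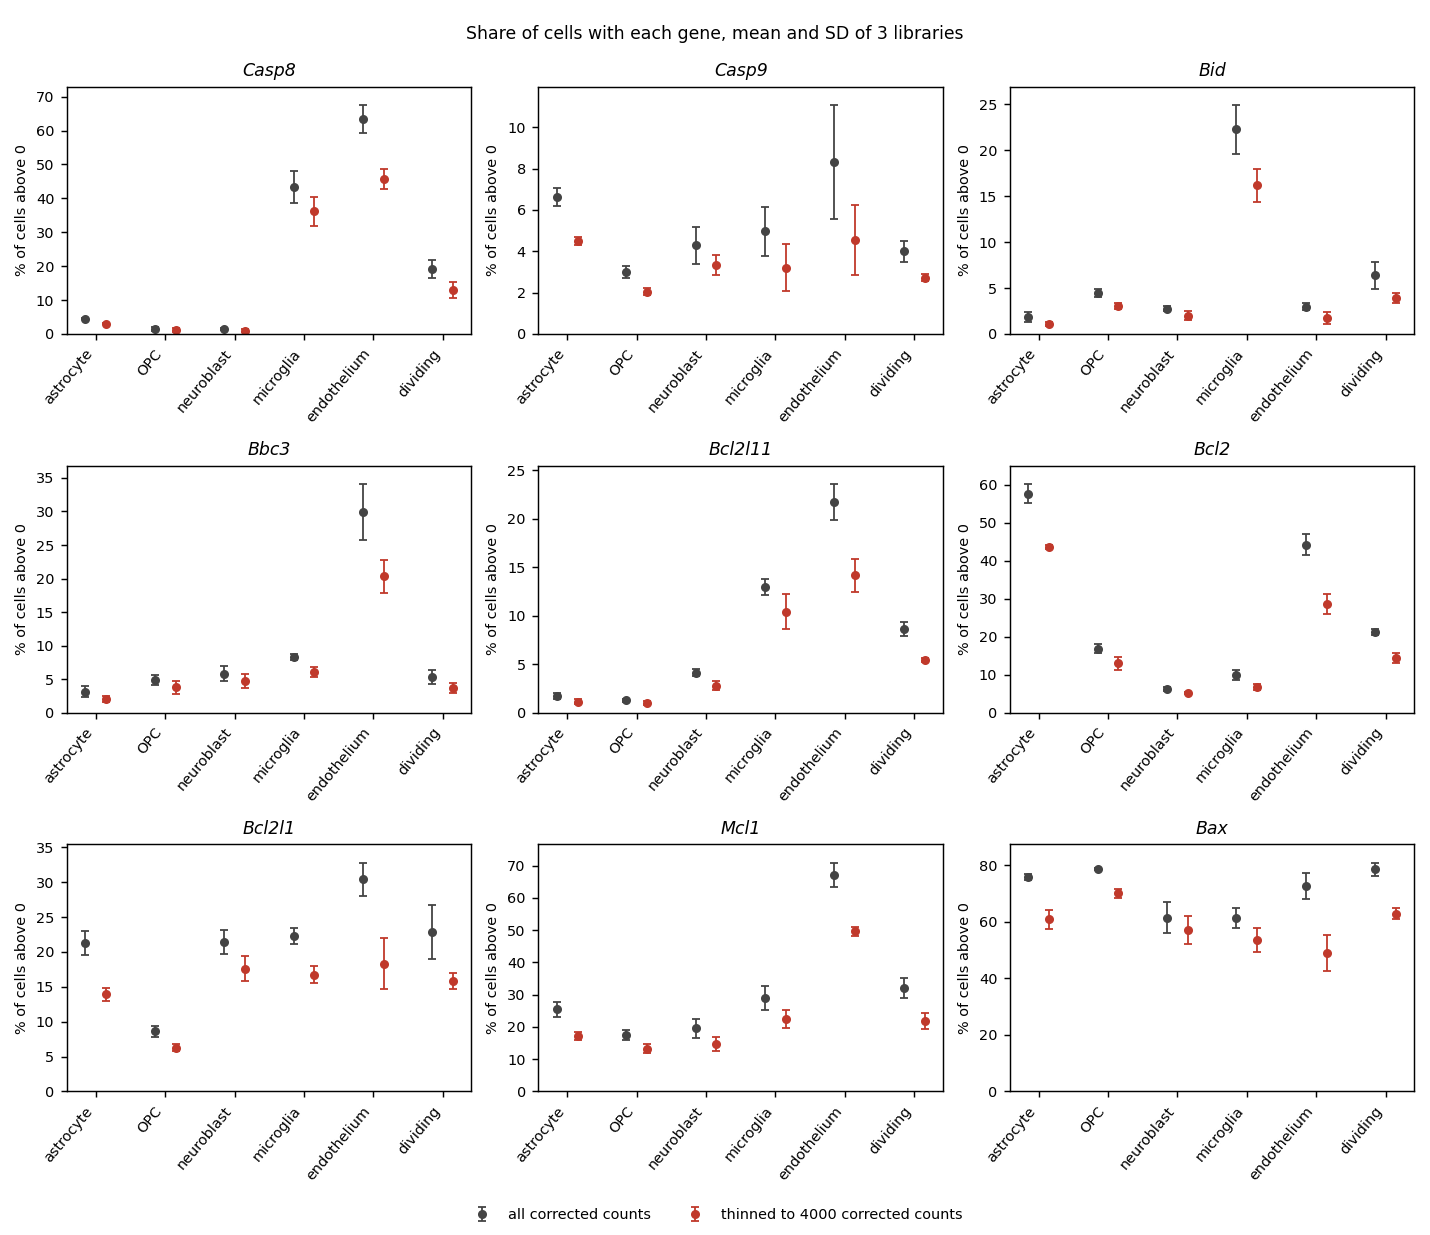
Percent of cells above 0 (vertical axis) for the 9 genes in the 6 tested classes, as the mean ± SD of 3 libraries, before thinning and after each cell was thinned to 4000 counts. Thinning lowered the Casp8 share from 63.4% to 45.8% in endothelium and left endothelium and microglia as the classes with the largest Casp8 shares.

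Dividing and non-dividing cells of the same lineage were then compared, which separates division from the mix of lineages in the dividing class. Depth still differed, with a median of 3319 detected genes in dividing against 2756 in non-dividing astrocytes and 3545 against 2604 in OPCs. It was 2834.5 against 1744 in neuroblasts and 2405 against 1835 in microglia. What this adds to the astrocyte results was not tested. Of 7 tested members (Bbc3 and Casp9 were under the filter), 2 were higher in dividing astrocytes, beside 18.4% of 9682 genes higher and 10.5% lower. The filter here is a mean over the groups of this fit, microglial groups included. Whether Casp8, Bid and Bcl2l11 pass it without the microglial groups was not examined, so their calls in this fit are read with caution. Casp8 was at 10.4, 29.4 and 33.4 CPM in dividing astrocytes, all above the 7.39 to 8.04 CPM of the non-dividing (0.88, SE 0.21, adjusted p = 0.00231). Bcl2l11 was at 6.43, 11.4 and 21.2 CPM there, against 2.31 to 3.44 CPM (0.78, SE 0.17, adjusted p = 0.00122). Both rest on few cells, with Casp8 above 0 in 18 and Bcl2l11 in 8 of 111 dividing astrocytes. The Casp8 call was lost without library 2 (0.75, adjusted p = 0.0960) and the Bcl2l11 call when both markers had to reach 2 counts (0.47, adjusted p = 0.208). Summed microglial markers in these cells were 134, 157 and 101 CPM, against 79.6 to 114 CPM in non-dividing astrocytes, and their part in the result was not tested.

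Few members were called in the other lineages. In OPCs Bax was lower in dividing cells, at 295, 273 and 279 CPM against 329 to 344 CPM (−0.24, SE 0.09, adjusted p = 0.0493), beside 14.6% of genes higher and 7.76% lower. That call was lost in 9 alternatives. In neuroblasts limma called 0 of 7 members at an adjusted p below 0.05 and 0 at an unadjusted p below 0.05 (22.6% of genes higher, 8.85% lower). With centring 3 members were lower there, Mcl1 (−0.33), Bax (−0.45) and Bid (−0.70). Bid passed the filter of the class comparison only through microglia, so its call is no support for this count. In microglia it called 0 members, with 1 at an unadjusted p below 0.05, Bcl2 (0.39, adjusted p = 0.142), beside 11.2% higher and 4.07% lower genes. Centring turned the excess of higher genes into an excess of lower ones in all 4 lineages, with 1120 higher and 2153 lower in astrocytes (1785 and 1018 before), 873 and 1847 in OPCs (1412 and 751), 919 and 2404 in neuroblasts (2187 and 857) and 632 and 1312 in microglia (1080 and 394).

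Among dividing cells, Casp8 was at 132, 113 and 126 CPM in dividing microglia and 121, 150.4 and 149 CPM in dividing endothelium, but at 3.59, 3.47 and 0 CPM in dividing neuroblasts. Bid was at 62.2, 24.9 and 39.3 CPM in dividing microglia, and Bcl2 at 128, 113 and 156 CPM in dividing astrocytes. The dividing endothelium, with 13 cells in library 3, was not tested. Its Bcl2 level was 42.7, 42.4 and 44.9 CPM, below all 3 libraries of non-dividing endothelium.

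**Figure D4:**
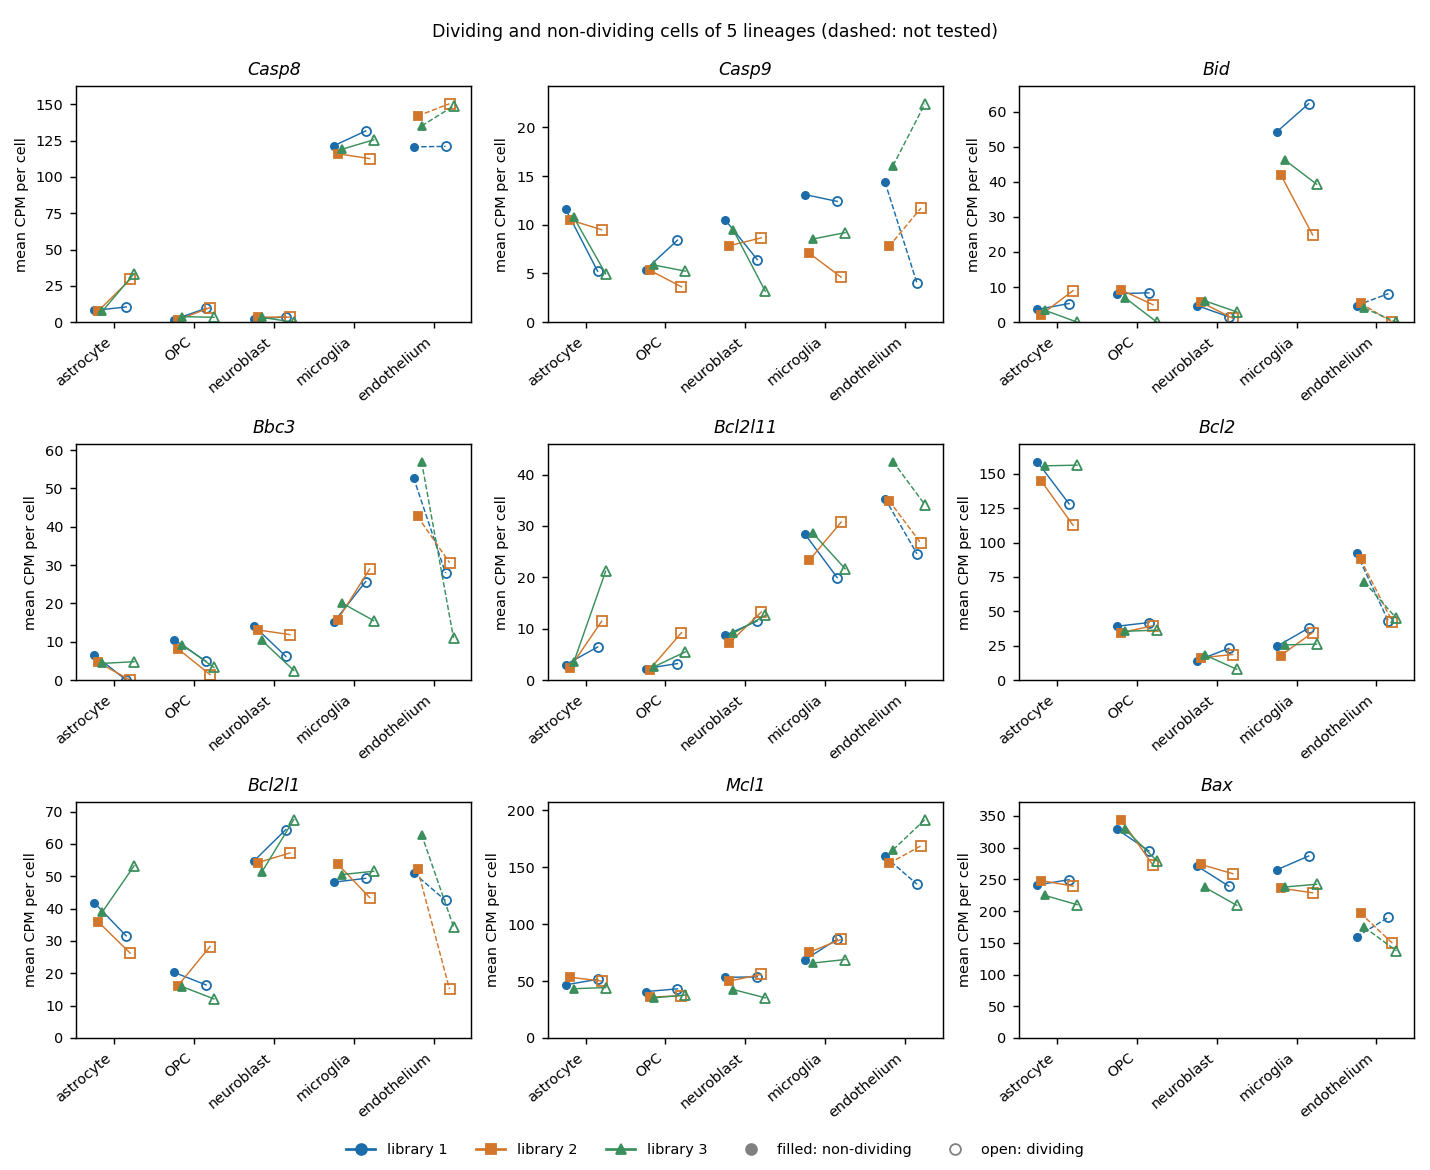
Mean CPM per cell (vertical axis) in non-dividing (filled) and dividing (open) cells of 5 lineages (horizontal axis), with 1 point per library; dashed marks the endothelium, which was not tested. Casp8 and Bcl2l11 are higher in dividing than in non-dividing astrocytes in all 3 libraries, and the lineage order of Casp8, with microglia and endothelium above the others, holds in both states.

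The rest of the pathway was taken as 50 genes in 9 lists, of which 32 passed the filter. In endothelium 14 of these were higher and 15 lower, in microglia 11 and 13, in neuroblasts 10 and 17, in OPCs 11 and 14, in astrocytes 9 and 14, and in dividing cells 19 and 3. These splits stand beside the shares of all genes given above for each class, such as 31% higher and 50.6% lower in endothelium and 51.9% and 9.26% in dividing cells. Centring on the median gene changed them to 18 and 7 in microglia, 15 and 12 in neuroblasts, 6 and 19 in OPCs, 7 and 20 in astrocytes and 8 and 12 in dividing cells. Bcl2a1b, which passed the filter only through microglia, is among the 32. It is in the higher counts of microglia and dividing cells and in each of the centred counts. Its calls are no support for any count of pathway genes. In the list of death receptors and adaptors, the 4 tested genes were all higher in both classes with high Casp8. Beside them, 21% of all genes were higher in microglia and 31% in endothelium. Fas, Tnfrsf10b and the adaptor gene Fadd, also in that list, were under the filter. The 4 tested were Tnfrsf1a, a TNF receptor (1.28 in microglia and 0.62 in endothelium), Tradd, its adaptor (0.68 and 0.54), the kinase gene Ripk1 (0.47 and 1.55) and Cflar, which encodes the Casp8 regulator FLIP (1.25 and 0.48). All 4 were lower in neuroblasts (3 when centred, without Tradd), beside 51.7% of all genes lower. Tnfrsf1a differed there by −2.22 on the log2 scale. The apoptosome list had 0 of 6 tested genes higher and 5 lower in endothelium, in a comparison where 50.6% of genes were lower. In dividing cells it had 5 higher and 0 lower, where 51.9% of genes were higher, and 1 and 1 when centred.

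Single Bcl2 family relatives marked some classes. Bok, a Bax relative, was higher in endothelium by 3.02, at 325, 309.7 and 327 CPM, and lower in microglia (−2.33) and astrocytes (−2.24). Bcl2a1b, a pro-survival gene of blood lineage cells, was at 153, 190.1 and 178 CPM in microglia and at means of 1.15 to 3.12 CPM in astrocytes, OPCs, neuroblasts and endothelium. It passed the filter only through microglia, so no test is given, and its near-identical copies make its counts uncertain. In dividing cells Birc5, which encodes survivin and acts in mitosis, was higher by 4.18 and was higher in each of the 4 tested lineages (3.23 to 4.55).

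Genes whose log2 levels followed a member most closely over the 18 class-by-library means were found by Pearson's r, a description over points that share libraries and depth. For Casp8 these were Ucp2 (0.996), Fam212a (0.994) and Zfp36 (0.994), and for Bid they were Bin1 (0.971), Cotl1 (0.966) and Hk3 (0.965). Bcl2 was followed by Il17rd (0.982), Chst1 (0.974) and Mfhas1 (0.972), Mcl1 by Jup (0.985), and Bcl2l11 by Fkbp7 (0.969). Bbc3 was nearest to Zcchc6 (0.970) and Bax to Plgrkt (0.940). Bcl2l1 had the loosest match of the 8, with Txnip (0.883).

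In the classes too small to test, Bax was above 0 in 25 of 27 oligodendrocytes, at 275 ± 38.6 CPM (SD, n = 3). Casp8, Casp9 and Bcl2 had no count in these cells, each allowing up to 11.1% of cells with a count. In excitatory neurons Bbc3 was above 0 in 13 of 50 cells (26.0%, exact binomial 95% interval 14.6% to 40.3%, counting error only), at 66.6, 40.9 and 117 CPM. Bcl2 was above 0 in 1 of the 50, and Casp9 in none. Library 3 held 3 of these 50 cells, so its values carry little weight. Excitatory neuron-like cells also carried summed erythroid transcripts at 29286, 10873 and 1455 CPM in libraries 1, 2 and 3. Their summed mural markers were at 1466, 59.0 and 55.4 CPM. The part of such RNA in the Bbc3 values was not tested.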

How the data were processed

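Single cells of mouse prefrontal cortex were profiled with a 10x Genomics kit on an Illumina NovaSeq, per the labels' protocols, which otherwise describe frozen tissue and do not say how single cells were obtained. The submitters' processing notes name CASAVA 1.8, Cell Ranger, Seurat and build mm10. The deposited values are the natural log of 1 plus a whole number, and those whole numbers sum to nearly the same total in every cell, so they are counts already corrected for depth by the authors, by a method not given in the sources used here. A second deposited table maps cells to libraries.

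The log was undone, each cell was scaled to the same total (CPM), and means were taken per class and library. limma 3.58.1 (R 4.3.3) was fitted to log2(mean CPM + 10), with trend and with library as a block, over classes of at least 20 cells in each library. A fold on this scale understates changes of low genes. Genes averaging 10 CPM or more over the class means entered (9754, or 9682 with the dividing class split), p-values were adjusted by Benjamini-Hochberg over all of them, and the two-sided threshold was 0.05. The library block pairs class means that come from the same library. In data simulated for the microglia comparison over 9754 genes, the fit recovered 47 of 50 genes changed by 0.5 on the log2 scale, with 14 false calls. The simulation used independent noise and changed few genes, in microglia only. In the data 21% of genes were higher and 62.8% lower in that comparison, so the recovery may not carry over. Scrublet (scanpy 1.11.5) called 120, 78 and 89 doublets, which were left out only as an alternative. The 2 pathway genes with the largest difference in each comparison could be named, and the other pathway genes named were chosen after their values were seen. Gene coordinates are from GENCODE M21. The members, classes, lists and tests were chosen with earlier results of these data known.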

Additional observations from a re-analysis of the deposited data

Results flagged for a closer look

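The difference between dividing and non-dividing cells was itself compared between lineages for 7 members and 6 pairs of lineages, 42 tests in all, of which 2 passed the threshold with adjustment over all genes. Whether Casp8 and Bcl2l11 pass the filter of this fit without the microglial groups was not examined, so both calls are read with caution. For Casp8 the dividing-cell difference was larger in astrocytes than in neuroblasts by 0.96 on the log2 scale (limma interaction, adjusted p = 0.0399). This was not past the threshold with 1 CPM added before the log (adjusted p = 0.0951), with a minimum of 1 CPM (0.0529), without library 2 (0.280) or 3 (0.325), or with both markers at 2 or more counts (0.183). For Bcl2l11 it was larger in astrocytes than in microglia by 0.90 (adjusted p = 0.0213), and not past the threshold without library 1 (0.0804), 2 (0.0805) or 3 (0.219) or with both markers at 2 or more counts (0.564).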

How the results depend on the processing

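Of the member-by-class differences under the alternatives, 495 kept their direction and call, 18 gained a call, 10 lost it and 5 reversed. Centring on the median gene turned dividing-class Bcl2l1 to −0.30, Bid to −0.24 and Bcl2l11 to −0.17, and between neighbours it turned Mcl1 in neuroblasts minus dividing cells to 0.25, Bcl2l11 there to 0.13, Bax in OPCs minus neuroblasts to −0.14 and Bid there to −0.27. Cells of 2000 to 3500 detected genes turned Bcl2l11 in neuroblasts to 0.19 and in neuroblasts minus dividing cells to 0.12. Without rescaling, Bax turned to 0.14 in dividing cells, 0.016 in dividing minus non-dividing OPCs and −0.22 in microglia minus dividing cells. With a minimum of 1 CPM, 39 pathway genes were called in OPCs (25 otherwise), 41 in neuroblasts (27) and 37 in microglia (24), from more genes tested. In the dividing class 8 members were called when centred and 4 when not rescaled, against 2. For dividing minus non-dividing cells, genes called ranged without 1 library from 1861 to 2499 in astrocytes (2803 with all 3), 1307 to 1730 in OPCs (2163) and 768 to 1162 in microglia (1474), the lowest each time without library 2, and were 1088 in neuroblasts in the 2000 to 3500 window (3044). Members called there ranged from 1 to 3 in astrocytes, 0 to 2 in OPCs and 0 to 1 in microglia without 1 library. With both markers at 2 or more they were 1 in astrocytes and 1 in microglia, and in neuroblasts 3 when centred, with Bid among the 3. In OPCs 0 members were called with 1 CPM added, a minimum of 1 CPM, no rescaling or without Scrublet doublets. Pathway genes called there were 4 with 1 CPM added and 11 without rescaling in astrocytes, and ranged from 4 to 6 without 1 library (7 otherwise). They were 13 without rescaling in OPCs and ranged from 2 to 5 without 1 library (6), and 5 without rescaling in microglia (3). In neuroblasts they were 5 when centred, 5 with both markers at 2 or more, 2 in the window, and 5 to 9 without 1 library (12). The causes were not tested. The library block pairs classes of the same library, and with no replicate block 0 members were called in dividing OPCs against 1, Bax (−0.24, adjusted p = 0.0829), and the microglial Mcl1 call was lost (adjusted p = 0.0638), while the other 153 values kept their call. In the 2000 to 3500 window the dividing astrocytes were too few to fit. Levels of members under a few CPM, and shares near those of foreign markers, are at the limit of what these depths show.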
